A study of Mus musculus with 2 samples.

Results

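Of 1381 listed mouse H3K4me3 regions, 326 (23.6%) held the start site of the gene they were listed for, counting a start site on either end of the region as held. Each of the 326 regions belonged to a different gene. The other 1055 regions, of 990 genes, had the start site outside them: 462 lay wholly upstream of it and 593 wholly downstream. Among the listed regions the members were chosen by position alone, and neither H3K4me3 height nor H3K9me3 entered the choice. The list itself was selected on H3K9me3: each region had at least 1 control read and a ratio of knockout to control above 2. The 23.6% is thus a share of such regions and not of H3K4me3 regions in general. H3K9me3 had been measured by ChIP-seq (chromatin immunoprecipitation and sequencing) in LSK cells, sorted from bone marrow of C57BL6 mice, and 1 value per library stood beside each region. The knockout library came from conditional mice in which Kdm4a, Kdm4b and Kdm4c had been deleted together, and the control library from mice labelled as wild type. Both kinds of mice had been given tamoxifen 2 weeks before the sort. The labels name neither the promoter that drives the recombinase, nor the age of the mice, nor whether animals were pooled.

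LSK cells are the lineage-negative bone marrow fraction positive for Sca-1 and c-Kit, which holds the stem and multipotent progenitor cells of blood. H3K4me3, trimethylation of lysine 4 on histone H3, marks the nucleosomes around active or poised start sites, usually on both sides of a stretch with few nucleosomes at the start itself. H3K9me3 is a mark of silent chromatin, found above all on repeats, pericentromeric DNA and clusters of zinc finger genes, and is normally scarce at active promoters. The proteins encoded by Kdm4a, Kdm4b and Kdm4c are demethylases that remove methyl groups from it.

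The promoters of 5 genes are printed to show the kinds of start site among the spanning regions. Zfp101 and Cep57l1 were among the highest ratios of knockout to control. Nom1 had the most reads in its spanning region among genes with a region of each kind. Orc2 and Aim2 were among the regions with the highest H3K9me3 levels. Each sequence runs from 250 bases before to 50 bases after the start site, 5′ to 3′ on the strand of the gene, from RefSeq on GRCm38.p6. Zfp101 lies at chr17:33394588-33394887 on the minus strand, Cep57l1 at chr10:41809819-41810118 on the minus strand and Nom1 at chr5:29434417-29434716 on the plus strand. Orc2 lies at chr1:58505060-58505359 on the minus strand and Aim2 at chr1:173420354-173420653 on the plus strand. Capitals mark matches, on either strand, to the 8 motifs searched, whose letters are given with the promoter results.
Zfp101: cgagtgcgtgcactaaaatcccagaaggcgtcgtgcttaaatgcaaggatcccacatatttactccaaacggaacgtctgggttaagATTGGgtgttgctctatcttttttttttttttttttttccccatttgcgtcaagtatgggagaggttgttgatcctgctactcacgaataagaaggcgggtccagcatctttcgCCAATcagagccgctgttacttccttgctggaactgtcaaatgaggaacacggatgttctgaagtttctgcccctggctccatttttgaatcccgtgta
Cep57l1: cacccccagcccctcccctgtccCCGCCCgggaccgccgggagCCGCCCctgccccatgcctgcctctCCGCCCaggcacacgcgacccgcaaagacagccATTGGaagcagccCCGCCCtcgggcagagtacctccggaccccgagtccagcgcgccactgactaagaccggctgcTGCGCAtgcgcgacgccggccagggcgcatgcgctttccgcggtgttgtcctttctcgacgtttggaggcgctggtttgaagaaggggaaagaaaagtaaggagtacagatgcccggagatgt
Nom1: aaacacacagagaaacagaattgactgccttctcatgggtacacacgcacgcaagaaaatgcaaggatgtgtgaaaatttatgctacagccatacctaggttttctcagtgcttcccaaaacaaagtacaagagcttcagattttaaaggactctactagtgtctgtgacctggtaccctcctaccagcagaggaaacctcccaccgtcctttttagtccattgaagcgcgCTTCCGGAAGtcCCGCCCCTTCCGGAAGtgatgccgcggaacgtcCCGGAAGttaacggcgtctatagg
Orc2: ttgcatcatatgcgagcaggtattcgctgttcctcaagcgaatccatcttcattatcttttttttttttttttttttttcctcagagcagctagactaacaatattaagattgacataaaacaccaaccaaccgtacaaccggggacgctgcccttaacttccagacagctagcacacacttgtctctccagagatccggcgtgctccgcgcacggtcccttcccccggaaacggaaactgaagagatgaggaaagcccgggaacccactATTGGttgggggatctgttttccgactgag
Aim2: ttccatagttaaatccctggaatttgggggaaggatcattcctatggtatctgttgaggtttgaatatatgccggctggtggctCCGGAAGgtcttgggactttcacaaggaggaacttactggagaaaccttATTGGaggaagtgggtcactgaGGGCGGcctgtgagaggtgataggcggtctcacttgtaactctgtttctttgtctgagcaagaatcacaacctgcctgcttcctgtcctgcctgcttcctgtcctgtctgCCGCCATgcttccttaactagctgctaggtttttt

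Read side by side, the 5 promoters differed in base composition. The promoter of Cep57l1 was 67.7% G or C with 29 CpG dinucleotides and 4 GC boxes, whereas that of Aim2 was 49.3% G or C with 5 CpG. The promoter of Nom1 held 5 ETS-type matches near the start, of which 4 came as overlapping pairs on the 2 strands in the palindrome CTTCCGGAAG. The promoters of Zfp101 and Nom1 lay inside their regions over all 300 bases, against 273 bases for Orc2, 256 for Aim2 and 168 for Cep57l1.

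The spanning regions were wider than the rest. Their median width was 1037.5 bp (quartiles 681.5 and 1390), against 620 bp (quartiles 453.5 and 819.5) for all other regions, 550.5 bp for those upstream and 691 bp for those downstream. Width is not independent of the rule, because a wider region holds a start site more easily. Every listed region also had its centre within 1000 bp of the listed start, so a very wide region had to span it. Of regions up to 500 bp, 10.8% spanned the start, against 48.7% of those from 1000 to 1500 bp and 88.6% of those above 1500 bp. The 5 widest members were those of Kif20a (2849 bp), a kinesin of cell division, the pseudogene 6820431F20Rik (2812 bp), Arhgap25 (2658 bp), a GTPase-activating protein, Marcks (2492 bp), a substrate of protein kinase C, and the gene 6330415G19Rik (2490 bp), a long noncoding RNA.

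**Figure D1:**
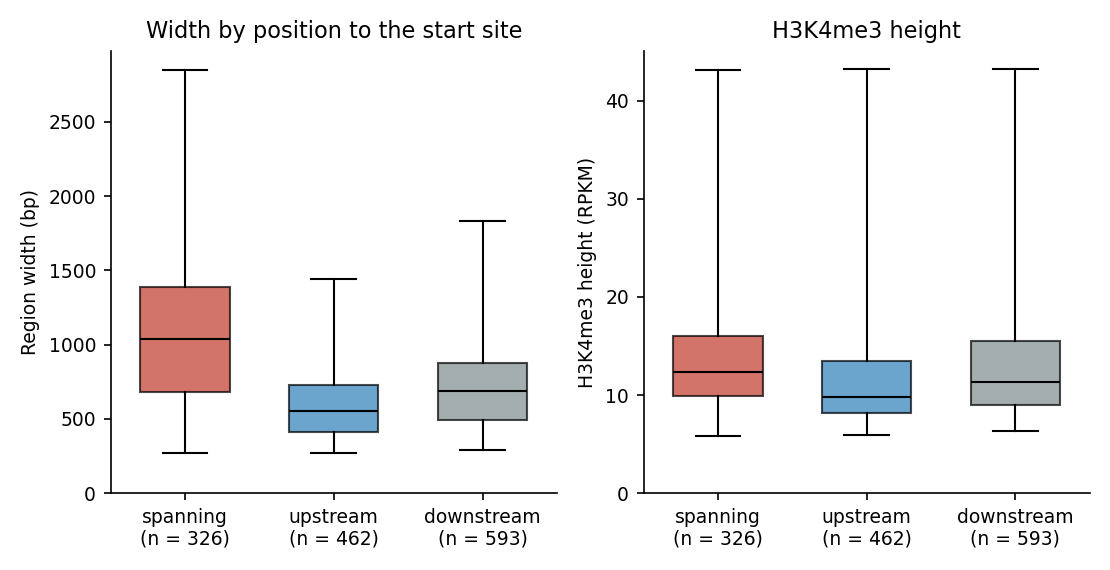
Region width in bp (left) and H3K4me3 height in RPKM (right) for the 326 regions that span the start site, the 462 upstream and the 593 downstream. Boxes give the quartiles with the median as a line, and whiskers the lowest and highest region; the median width was 1037.5 bp in spanning regions, 550.5 bp upstream and 691 bp downstream.

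A typical spanning region reached further into the gene than away from it. The median extent was 458 bp upstream (quartiles 145.5 and 670.5) and 628.5 bp downstream (quartiles 159 and 927). The H3K4me3 apex lay a median of 82 bp downstream of the start, with quartiles at -211.5 and 366 bp. The median distance of the apex from the start in either direction was 270.5 bp, against 550 bp for all other regions, a difference that the rule itself favours. In 190 members the start lay at least 100 bp inside both ends. In 68 it lay within 100 bp of the downstream end, so that nearly the whole region was upstream, and in 68 within 100 bp of the upstream end.

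**Figure D2:**
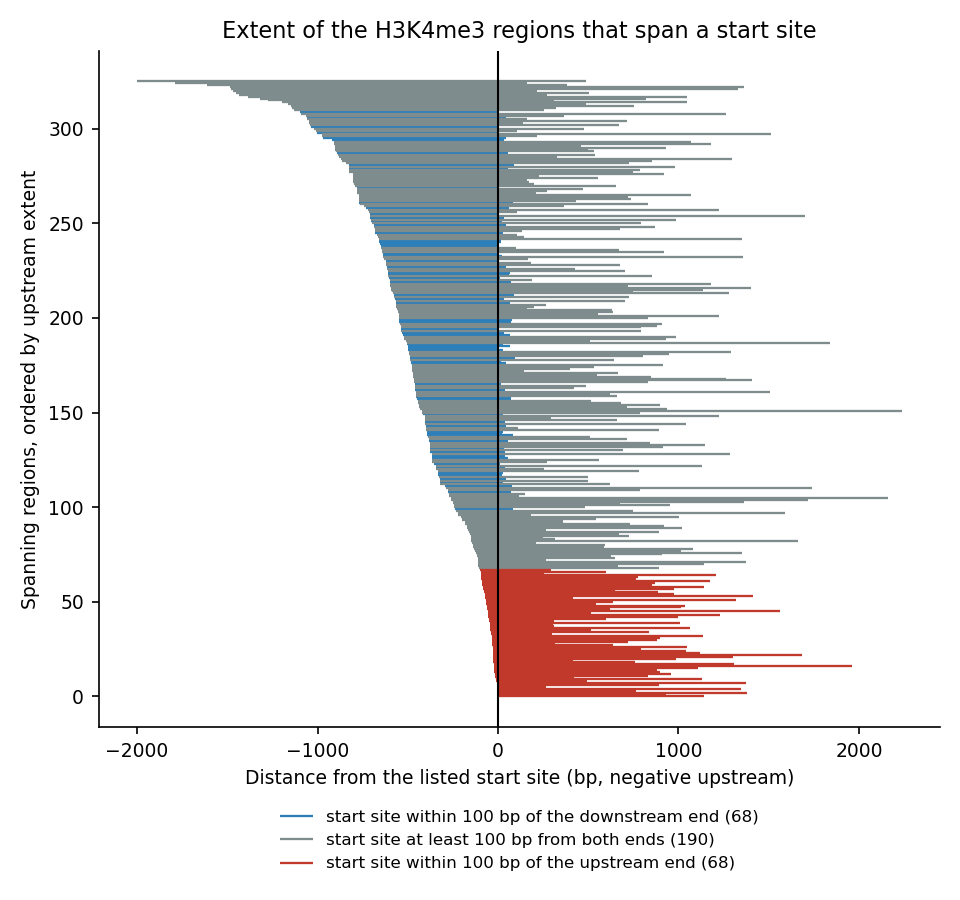
Each of the 326 spanning regions is a horizontal bar of its true extent in bp around the listed start site (vertical line at 0, negative upstream), ordered by upstream extent. Colours give the start within 100 bp of the downstream end (68 regions), at least 100 bp from both ends (190 regions) and within 100 bp of the upstream end (68 regions).

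In the deposited positions the start site equalled an end of the region for the members of Dctn5, a dynactin subunit, Tmem55a, a phosphatase of phosphoinositides, and Ube2j2, an E2 enzyme of ubiquitin transfer. These held 5, 7 and 4 knockout reads, against 1 control read each. Deposited starts count from 0, so in 1-based coordinates the start sites of Tmem55a and Ube2j2 lie 1 base past the region's last base, and they are members only because the rule includes both deposited ends. Just outside the rule, by deposited positions, were Samm50, which inserts proteins into the outer mitochondrial membrane, 1 bp from its region (6 knockout reads and 1 control read), Wdcp at 2 bp (4 knockout reads and 1 control read) and Champ1, a protein of kinetochore attachment, at 3 bp (20 knockout reads and 7 control reads). The listed start was 1 of several for many genes. It equalled the outer gene start in the RefSeq gene table for 183 of the 326 members, and by that start 321 regions would span, 273 of them the same.

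Taken over all widths, H3K4me3 was slightly higher in the spanning regions. Their median height was 12.4 RPKM (quartiles 9.88 and 16), against 10.6 RPKM (quartiles 8.54 and 14.4) for all other regions, 9.78 RPKM upstream and 11.3 RPKM downstream. Wider regions were also higher, with a Spearman rho of 0.308 across the 326 members and 0.447 across the 1055 others; both quantities come from 1 region call, and regions are not replicates. Among regions of 500 to 1000 bp the medians were 12.6 RPKM for spanning and 11.9 RPKM for other regions. Up to 500 bp they were 8.81 and 8.69 RPKM. Wider regions went the other way, with 12.7 RPKM for spanning and 13.7 RPKM for other regions from 1000 to 1500 bp. Above 1500 bp they were 13.7 and 14.8 RPKM, with 8 other regions. The highest members were Nol6 (43.1 RPKM), a nucleolar protein of small ribosomal subunit assembly, Helb (40.4 RPKM), a DNA helicase, and Alg11 (38.6 RPKM), a mannosyltransferase of N-glycan synthesis. Bud31, a splicing factor, and Vps72, a subunit of complexes that exchange histone H2A.Z, followed at 36.4 RPKM each. H3K9me3 at these 5 came to 10 knockout and 2 control reads at Nol6, 13 and 3 at Helb, 17 and 2 at Alg11, 7 and 3 at Bud31, and 12 and 3 at Vps72.

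Few H3K9me3 reads fell in the spanning regions. A member held a median of 7 reads in the knockout library (quartiles 4 and 12, range 3 to 74) and 2 in the control library (quartiles 1 and 3, range 1 to 32). The other regions held a median of 6 reads in the knockout library and 2 in the control library. A single control read was all that 140 members (42.9%) had, against 500 other regions (47.4%). The library totals behind the scaling were 26061344 reads for the knockout and 24673463 for the control, so that 1 read was worth 0.0384 and 0.0405 RPM in them. No input library was analysed here, so enrichment over background could not be judged, and more modified cells cannot be told apart from more H3K9me3 per cell.

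Every region in the table had a deposited ratio of knockout to control above 2, so that a higher value in the knockout library is a property of the selection and not a finding about the members. What can be compared is its size. Summed over the 326 members there were 3050 knockout and 824 control reads, a ratio of 3.50 after scaling to library size (95% counting interval 3.24 to 3.79). Over the 1055 others there were 9205 knockout and 2555 control reads, a ratio of 3.41 (3.26 to 3.57). The ratio of the spanning to the other value was 1.03 (0.940 to 1.12), which includes no difference. It was 1.01 (0.909 to 1.12) against the upstream and 1.04 (0.947 to 1.15) against the downstream regions. A common fold fitted with the selection taken into account was 2.82 (2.50 to 3.17) for spanning and 2.66 (2.47 to 2.85) for other regions. All these intervals cover counting error only, because each condition had 1 library and the spread between animals is unknown.

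The median ratio of a region was 3.31 for spanning and 2.84 for other regions. With few reads the ratio takes only a few values, and after adding 1 control read's worth to both libraries the median log2 ratio was 1.26 in both sets. The ratio was 4 or more in 106 members (32.5%), against 289 other regions (27.4%) and 28.6% of the whole table. The counting interval lay above 1 in 81 members (24.8%), against 211 others and 21.1% of the table. It lay above 2 in 10 members (3.07%), against 38 others (3.60%) and 3.48% of the table. These shares lie near those of the whole table.

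**Figure D3:**
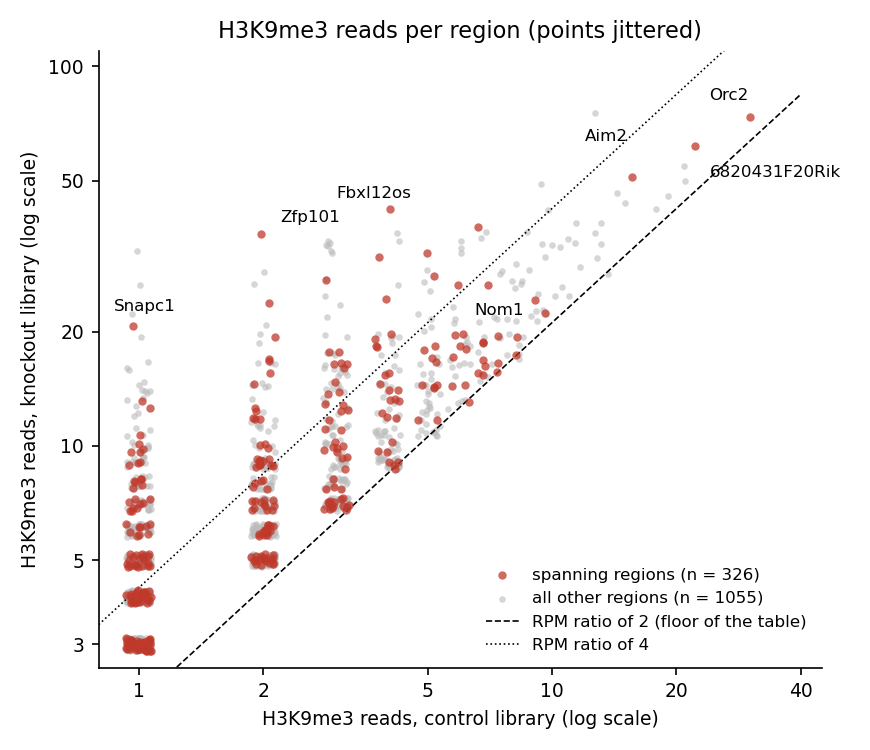
H3K9me3 reads in the knockout library (vertical) against the control library (horizontal), both on log scales, for the 326 spanning regions in red and the 1055 others in grey, with a small jitter to part equal counts. Before the jitter no region lies below the dashed line of a ratio of 2, the floor of the table, and Orc2 lies farthest to the upper right with 74 knockout and 32 control reads.

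The comparison was repeated at equal control reads, since the ratio depends on them. At 1 control read the selection admits no fewer than 3 knockout reads, a ratio of 2.84. Part of the fall of the ratio with control reads is thus built in, and only spanning and other regions at the same level are compared. At 1 control read the joint ratio was 4.59 (3.82 to 5.55) in spanning and 4.61 (4.18 to 5.08) in other regions. At 2 control reads it was 3.95 (3.31 to 4.74) in spanning and 3.38 (3.05 to 3.75) in other regions, and at 3 it was 3.35 (2.76 to 4.09) in spanning and 3.59 (3.20 to 4.02) in other regions. At 4 or more it was 2.996 (2.67 to 3.36) in spanning and 2.86 (2.68 to 3.06) in other regions. The intervals of spanning and other regions overlapped at every level.

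**Figure D4:**
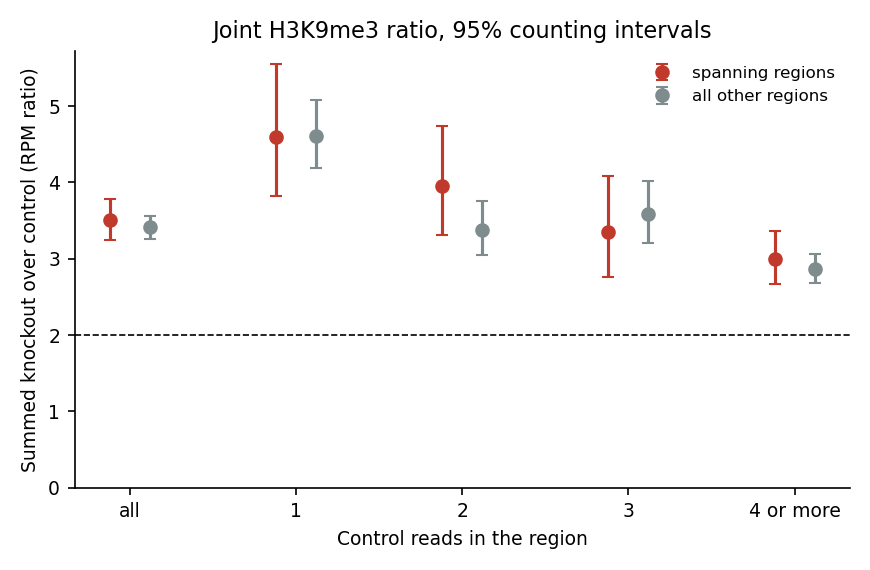
Ratio of summed knockout to summed control H3K9me3 (RPM ratio), with 95% counting intervals as bars, for spanning (red) and other regions (grey), over all regions and by control reads in the region. The dashed line is the floor of 2 over the whole table, and at 1 control read the lowest possible ratio was 2.84. The value over all regions was 3.50 for spanning and 3.41 for other regions.

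Reads per region did not grow with its width. Spearman's rho of width with knockout reads was -0.064 and with control reads -0.076 across the 326 members. Per kb of region the spanning set therefore had fewer reads than the rest in both libraries, with 8.57 against 13.0 in the knockout and 2.32 against 3.62 in the control. Among regions of 500 to 1000 bp the knockout values per kb were 12.8 for spanning and 12.4 for other regions, and the control values 3.65 and 3.30. The share at a ratio of 4 or more in that class was 30.1% in both sets. By finer classes it was 26.3% in spanning and 27.5% in other regions from 500 to 750 bp, and 32.7% and 34.1% from 750 to 1000 bp. Up to 500 bp it was 31.0% in spanning and 24.9% in other regions, and above 1500 bp 32.3% (20 of 62) and 12.5% (1 of 8). Among regions of 1000 to 1500 bp it was 36.4% (40 of 110) in spanning and 22.4% (26 of 116) in other regions, with overlapping joint ratios of 3.81 (3.31 to 4.39) and 3.35 (2.91 to 3.86). The labels do not give the window in which reads were counted, and whether it equals the region was not tested.

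The ratio was also set beside the place of the start within the region. With the start near the upstream end there were 578 knockout and 145 control reads in 68 members, a joint ratio of 3.77 (3.14 to 4.56). With the start well inside there were 1709 and 451 reads in 190 members, a ratio of 3.59 (3.23 to 3.99). With the start near the downstream end there were 763 knockout and 228 control reads in 68 members, a ratio of 3.17 (2.73 to 3.69). In this last class Orc2 alone held 74 knockout and 32 control reads, and without it the ratio was 3.33. The 3 intervals overlapped.

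In 10 members the data gave a counting interval wholly above 2. The intervals of single regions take no account of the table's selection at a ratio above 2, so their lower limits may lie too high. Zfp101, a zinc finger gene, had 37 knockout and 2 control reads, or 1.42 and 0.0811 RPM, a ratio of 17.5 (4.52 to 150). Its region, chr17:33394486-33394909 on mm10, was one of the narrower ones at 424 bp. Snapc1, which acts in transcription of small nuclear RNAs, had 21 knockout reads and 1 control read, a ratio of 19.9 (3.20 to 822). The pseudogene Fbxl12os had 41 knockout and 4 control reads (9.70, 3.51 to 37.3). Cep57l1, a relative of a centrosomal protein, had 23 knockout and 2 control reads (10.9, 2.69 to 95.3). Qtrt2, a subunit of the enzyme that puts queuine into tRNA, had 31 knockout and 4 control reads (7.34, 2.59 to 28.6). Mterf1b and Mterf1a, near-identical copies of a mitochondrial transcription termination factor, had 28 and 33 knockout reads, against 3 and 5 control reads. Reads of these copies may be assigned to either, so both values are uncertain.

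The other 3 of the 10 were Ttc30b, Pramef8 and Hpf1. Ttc30b, a protein of intraflagellar transport, had 19 knockout and 2 control reads (8.99, 2.17 to 79.6). Pramef8, of the multicopy PRAME family, had 38 knockout and 7 control reads (5.14, 2.27 to 13.6), and Hpf1, a partner of PARP1 in histone ADP-ribosylation, had 29 and 5 (5.49, 2.10 to 18.2). A further 3 members were among the 10 highest log2 ratios on a single control read, with intervals that lay above 1 but reached below 2. Wdr59, a component of the GATOR complex of nutrient sensing, and the gene 2700062C07Rik had 13 knockout reads each (12.3, 1.85 to 523), and Prepl, a prolyl endopeptidase-like hydrolase, had 11 (10.4, 1.51 to 448). The upper ends of these intervals show how little 1 or 2 control reads fix a ratio.

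The lowest ratios among members with at least the median of 9 reads lay just above the floor, so that the table's selection sets this end. Akr1c13, an aldo-keto reductase, had 17 knockout and 8 control reads, a ratio of 2.01 (0.823 to 5.39). The pseudogene 1810014B01Rik had 15 and 7, the F-box gene Fbxw17 had 13 and 6, and Mir1949 and Polr2g, a subunit of RNA polymerase II, had 9 and 4 each. Ppih and Syt7 tied with these at 9 and 4, and the tie went by alphabetical order. The counting intervals of all of these included 1.

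Orc2, 6820431F20Rik and Aim2 had the most H3K9me3 reads in both libraries. Fbxl12os and Pramef8 followed in the knockout library, and Fancl and Gm1976 in the control library. Orc2, a subunit of the origin recognition complex, had 74 knockout and 32 control reads, or 2.84 and 1.30 RPM, a ratio of 2.19 (1.43 to 3.43). The region, chr1:58505087-58505746, reached 637 bp upstream and 23 bp downstream of the start and also had a high H3K4me3 of 30.5 RPKM. The pseudogene 6820431F20Rik had 61 knockout and 23 control reads (2.51, 1.53 to 4.25). Aim2, the cytosolic DNA sensor of an inflammasome, had 53 knockout and 15 control reads, or 2.03 and 0.608 RPM, a ratio of 3.35 (1.86 to 6.39). Fancl, the ubiquitin ligase of the Fanconi anaemia pathway, had 24 and 9 (2.52, 1.13 to 6.17), and the long noncoding RNA Gm1976 had 22 and 9 (2.31, 1.02 to 5.71). Without the 3 with most reads the joint ratio of the spanning regions was 3.59.

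Spanning regions were more often listed for genes that do not encode a protein. These were 38 of 326 genes (11.7%), against 64 of 990 (6.46%) for the other regions. They were 19 long noncoding RNAs, 7 microRNAs, 4 snoRNAs, 1 snRNA and 7 transcribed pseudogenes. Some of these regions held the start of a protein-coding gene too. The region of Mir1894 held the start of Ppp1r10, that of Mir707 the start of Akt1s1 and that of AF357399 the start of Rps16. MicroRNAs and snoRNAs were 11 and 1 of the 990 genes of other regions. For both kinds the listed start is that of the listed RNA, and whether transcription starts there was not tested. The noncoding members had 381 knockout and 115 control reads, a ratio of 3.14 (2.54 to 3.90). The 288 protein-coding members had 2669 and 709, a ratio of 3.56 (3.28 to 3.88). Median width was 1221 bp in the noncoding members and 1014.5 bp in the protein-coding ones. Whether width bears on the noncoding share was not tested.

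Genes with a Zfp symbol were 30 of the 326 (9.20%), against 33 of 990 (3.33%) for the other regions. Zfp symbols are given to zinc finger proteins of varied kinds, of which many repress transposable elements or genes and lie in clusters of close copies. Of the 30, 9 lay on chromosome 7, 7 on chromosome 13 and 7 on chromosome 17. Together the 30 had 339 knockout and 82 control reads, a joint ratio of 3.91 (3.07 to 5.04). The 38 other regions of Zfp genes had 506 and 147 reads and a ratio of 3.26 (2.71 to 3.94), so the intervals overlap. Without Zfp101 the spanning value was 3.57 (2.78 to 4.63). The ratio was 4 or more in 13 of the 30 (43.3%, against 28.6% of the table), and the counting interval lay above 1 in 10 (33.3%, against 21.1% of the table). Of the 38 other Zfp regions 9 (23.7%) reached a ratio of 4 and 12 (31.6%) had an interval above 1.

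Besides Zfp101, Zfp26 (17 knockout and 2 control reads), Zfp58 (17 and 3) and Zfp560 (19 and 4) had intervals above 1, as did Zfp458, with the second most knockout reads among them (27 and 7). At the low end Zfp30, Zfp51, Zfp526 and Zfp950 had 3 knockout reads and 1 control read each. These Zfp genes were named after their values were seen. Close copies within the clusters may share reads, so the value of any 1 of them is uncertain. Leaving out all Zfp genes gave joint ratios of 3.46 for spanning and 3.42 for other regions.

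Among 23 gene lists with 887 genes, 125 genes had a region and 27 a spanning one, in 14 lists. Assembly of the small ribosomal subunit had most, with 6 of 40 genes. Nom1, a nucleolar protein with an MIF4G domain, had 27 knockout and 6 control reads, a ratio of 4.26 (1.72 to 12.6). Nol6 had 10 and 2 (4.73, 1.01 to 44.4), whereas Utp11 had 7 and 3 (2.21) and Utp20 7 and 2 (3.31), both of the processome that matures the small subunit rRNA. Riok1, a kinase of late subunit maturation, had 5 and 1 and Heatr1, a processome protein, 4 and 1. Together the 6 had 60 knockout and 15 control reads, a joint ratio of 3.79 (2.12 to 7.18). Of the 6, 3 reached a ratio of 4, against 28.6% of the whole table, and 2 had an interval above 1, against 21.1%.

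Other lists of the protein synthesis machinery, which do not hold every gene of their kind, had 0 to 3 spanning members each. Sbds, of large ribosomal subunit assembly, had 9 knockout reads and 1 control read (8.52, 1.18 to 373). Rps7 had 16 and 3 (5.05, 1.45 to 27.0) and Rps23 4 and 1, of the 46 cytoplasmic ribosomal protein genes listed, 8 of them with any region. Rpl37a (15 and 4) and Rps26 (12 and 4), seen only after the values were known, are ribosomal protein genes with spanning regions that the list does not hold. Of 77 mitochondrial ribosomal protein genes 10 had any region and 3 a spanning one: Mrpl36 with 7 and 1, and Mrps17 and Mrps33 with 6 and 1 each. The RNA polymerase I subunit gene Polr1e had 6 and 1, and Exosc3 of the RNA exosome 15 and 6. Of 21 genes for cytosolic aminoacyl-tRNA synthetases, 6 had another region and 0 a spanning one. With 23.6% of all listed regions spanning the start, this count is too small to be a result about these genes.

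In genome maintenance, 7 of 53 DNA repair genes had any region and 3 a spanning one. Xrcc2, which acts in repair of double-strand breaks, had 17 knockout and 3 control reads (5.36, 1.55 to 28.6), Fancl is given above, and Ogg1, a glycosylase of oxidised guanine, had 3 and 1. Of 68 genes of DNA replication and mitosis 12 had any region, and Orc2 and Pole2, a subunit of DNA polymerase epsilon (4 and 1), were members. Ccng1, a p53 target, had 5 and 1. Of 44 interferon-inducible and DNA-sensing genes 7 had any region, and Aim2 and Ifit2 (9 and 2) were members. Single or paired members of other lists were Cox7a2 of the respiratory chain (4 and 1), the F-box genes Fbxw17 and Fbxo28 (5 and 2) and Bbs4 of the BBSome at the cilium (16 and 3, 5.05).

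None of 40 regulators of stem and progenitor cells had a spanning region, and 2 had another region. The same held for all 24 cytokine receptor genes, of which 4 had another region. It also held for 30 writers, readers and erasers of H3K9 and DNA methylation, of which 3 had another region. Of all listed regions 23.6% spanned the start, so the absence of a spanning region among so few genes is no result about them. No T or NK lymphoid, myeloid or erythroid gene of the lists had any region, and 1 of 14 B lymphoid genes had one outside its start. The table gives no expression, and a gene is in it only when its H3K9me3 ratio passed the selection, so its genes cannot check that the cells were LSK cells. The start site of Kdm4d, a relative of the deleted genes, lay inside the region listed for Cwc15, a splicing factor, which had 9 knockout and 2 control reads (4.26, 0.882 to 40.5).

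There were 20 genes with a spanning region and another region, which gives a comparison within genes. The other region lay downstream of the start in 14 and upstream in 6, at a median gap of 245.5 bp (106 to 607). Summed over the 20, the spanning regions had 220 knockout and 57 control reads, a ratio of 3.65 (2.72 to 4.98), and the other regions 246 and 66 reads, a ratio of 3.53 (2.68 to 4.70). The spanning ratio was the higher in 9 genes, the lower in 9 and equal in 2, and in no gene were the counting intervals apart. Knockout reads were more in the spanning region in 8 genes and fewer in 11. H3K4me3 was higher in the spanning region in 11 of the 20, and that region was the wider in 12.

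The genes of this kind with most reads in the spanning region were Nom1, Abracl, Tasp1, Xrcc2 and Exosc3. In Tasp1, which encodes the protease taspase 1, the spanning region had 18 knockout and 4 control reads (4.26) and the other 33 and 6 (5.21). Abracl had 19 knockout and 6 control reads in its spanning region and 5 and 1 in the other, and Exosc3 had 15 and 6 in its spanning region and 10 and 4 in the other, equal ratios of 2.37. Nom1 had 27 and 6 reads in its spanning region and 13 and 5 in the other, and Xrcc2 17 and 3 in its spanning region and 18 and 6 in the other. If the counting window was wider than the region, paired regions may share reads.

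**Figure D5:**
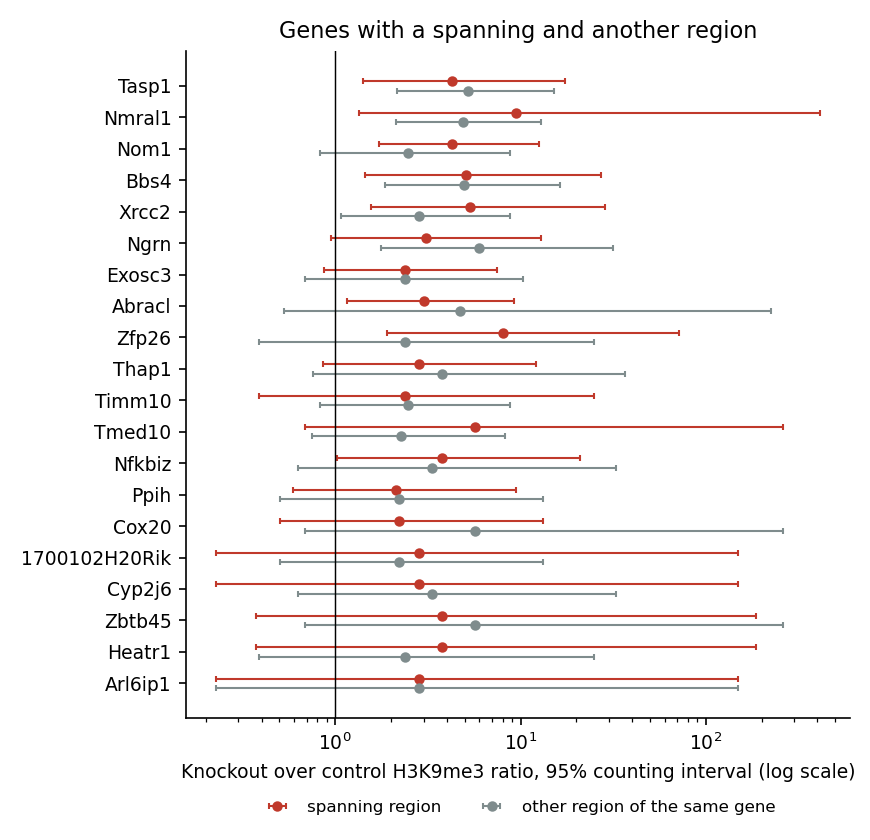
Knockout over control H3K9me3 ratio on a log scale with its 95% counting interval for the spanning region (red) and the other region (grey) of the 20 genes that have both, most reads at the top. The interval pairs overlap in all 20 genes, and the spanning ratio is the higher in 9 and the lower in 9.

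Promoter sequence was compared for genes whose RefSeq promoter entry starts within 50 bp of the listed start: 231 spanning regions and 727 genes of other regions, beside all 32851 promoter entries of the same length. The entries used hold none on chromosome 18. Spanning promoters were poorer in G and C, with a median of 55.0% against 61.7% for other regions, and held a median of 15 CpG against 22. The CpG content was at least 0.6 of that which the base composition predicts in 71.0% of spanning promoters, 81.4% of those of other regions and 35.8% of all promoters. Spanning promoters of this CpG-rich kind had 1536 knockout and 400 control reads, a ratio of 3.64 (3.25 to 4.07), and the 67 below it had 624 and 180, a ratio of 3.28 (2.78 to 3.90).

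The motifs were searched on both strands, and matches may overlap. The GC box (GGGCGG) was in 51.5% of spanning promoters, 68.9% of those of other regions and 35.7% of all promoters. The CCAAT box (CCAAT) was in 46.3%, 39.6% and 37.4% in the same order. The ETS-type motif (CCGGAAG) was in 29% of spanning promoters, 29.4% of others and 8.86% of all, and the TATA box (TATAAA) in 7.36%, 4.54% and 13.6%. For NRF1-type letters (TGCGCA) the shares were 15.6% of spanning promoters, 17.7% of others and 7.76% of all, and for YY1-type letters (ATGGCGG) 7.79%, 12% and 4.05%. The E-box (CACGTG) was in 9.52%, 12.2% and 7.15%, and the CRE-type letters (TGACGT) in 14.3%, 14% and 7.51%. A match is a description of the letters and not of a bound factor.

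Neighbouring starts were read from the same promoter entries, which cover 314 spanning and 1019 other regions and leave out the 48 on chromosome 18. Another gene's start lay inside 32 spanning regions (10.2%), against 30 others (2.94%), and wider regions hold more starts. Examples are Sbds with Tyw1, Riok1 with Cage1, Ccdc115 with Imp4 and Tmem167 with Xrcc4. A divergent start within 1000 bp upstream was present for 47 spanning regions (15%) and 170 others (16.7%). The 47 had 426 knockout and 117 control reads, a ratio of 3.45 (2.80 to 4.27), and the 267 spanning regions without one had 2539 and 684 reads and a ratio of 3.51 (3.23 to 3.83). The start of Sesn1, a p53-induced regulator of nutrient signalling, lay upstream of Cep57l1 on the other strand.

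By chromosome, the share of listed regions that spanned the start was highest on chromosome 13, at 29 of 75 (38.7%), and lowest on the X chromosome, at 2 of 19 (10.5%), against 23.6% of all. Of the 29 on chromosome 13, 7 belonged to Zfp genes.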

How the data were processed

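H3K9me3 ChIP-seq was done on LSK cells, with 1 library from triple knockout and 1 from control mice. Trimmomatic, Bowtie2 and build mm10 are named in the submitters' processing notes. No label gives the region caller, the counting window or the handling of duplicates.

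H3K9me3 was deposited by the authors as library-scaled values, read here as RPM; values per 1 kb window would look alike. All (100.0%) were whole multiples of 1 step per library to within 0.01 reads, which gave the reads and totals. The deposited ratio of knockout to control RPM equalled the recomputed one; its minimum was 2.01, and each region had at least 1 control read. H3K4me3 height was deposited by the authors as a normalized value with no unit named, and is read here as RPKM because it equals whole reads per kb times 1 constant; its libraries were not analysed here. Deposited positions were turned into 1-based mm10 coordinates. Every one of the 1381 regions had a gene in RefSeq's table for GRCm38.p6. Exons, introns and UTRs were not annotated.

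With 1 library per group there was no test between conditions. Ratios carry exact 95% binomial (Clopper-Pearson) intervals, scaled by library totals, and 2 joint ratios were compared by an exact conditional interval. Neither kind of interval takes account of the table's selection. Without molecular identifiers reads need not be independent molecules, so intervals cover counting error only. A fold common to all regions was fitted to reads truncated at a ratio of 2 and checked on data simulated from the same model. Those data had 1 fold for every region, so the check cannot show whether a common fold describes these regions. For log2 ratios 0.0405 RPM was added to both libraries. Named genes were the 10 highest and 5 lowest log2 ratios among spanning regions with at least the median reads, the 5 highest in each library, the 5 widest, the 5 with most H3K4me3, the starts nearest a region end, the extremes of gene lists or all members of lists with 1 or 2, and the 5 with most reads in the spanning region among genes with both kinds of region. Others were named beside a count and chosen after their values were seen. The members and lists were chosen with earlier results of these data known. Alternatives changed the rule, read filter, widths, fold, interval, pseudocount and scaling. Python 3.11.15, pandas 2.3.3 and scipy 1.17.1 were used.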

Additional observations from a re-analysis of the deposited data

How the results depend on the processing

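Of the summary values under the alternatives, 48 kept within their range, 35 moved beyond it and 2 changed sign. The range was a counting or order-statistic interval, except for the number of spanning regions, where it was a fixed factor. For 56 named members only the pseudocount was changed, and all 112 values stayed within the member's own interval. This is a weak check, because the intervals are wide and a smaller pseudocount moves a value toward the ratio that the interval always holds. For example, the log2 ratio of Snapc1 moved from 3.38 to 4.18 with the smaller and 2.05 with the larger pseudocount. The joint ratio stayed between 3.30 and 3.59 in spanning regions under the changes of rule, read filter, widths and members left out, and the fitted common fold was 2.82 for spanning and 2.66 for other regions. Requiring the start at least 100 bp inside left 190 members, with a median width of 1293 bp and 6.79 knockout and 1.79 control reads per kb. With at least 10 reads per region, median widths were 946 bp for spanning and 601 bp for other regions, median log2 ratios 1.51 and 1.45, shares at a ratio of 4 39.7% and 34.2%, and shares with an interval above 1 49.7% and 45.4%. Reads per kb were then 14.1 and 22.7 in the knockout and 3.82 and 6.31 in the control. Regions of 500 to 1000 bp had median widths of 743 bp (spanning) and 703 bp (other), a height of 11.9 RPKM in other regions, 12.8 and 12.4 knockout reads per kb and 3.65 and 3.30 control reads per kb. A pseudocount 10 times smaller gave median log2 ratios of 1.68 (spanning) and 1.48 (other), and one 5 times larger 0.70 and 0.62. Scaling both libraries to equal sums over the table, which shifts every log2 ratio by -1.78 before the pseudocount, turned the medians to -0.035 (spanning) and -0.13 (other), and was not applied to the joint ratio. A fold of 3 was reached by 54.9% of spanning and 48.4% of other regions, a fold of 5 by 18.4% and 16.6%, and a 99% interval lay above 1 in 10.4% and 10.3%. Several of these moves follow from how the alternatives are built. They are the shares under another fold or confidence level, the median widths under the width filter, and the log2 ratios under another pseudocount. The lower medians under equal sums follow too, because every ratio in the table was above 2. Requiring the start well inside favours wide regions, and requiring more reads narrows the intervals. For the other moves the cause was not tested. Leaving out the 3 regions with most reads was chosen after seeing the data. No paired analysis was possible because there was 1 library of each genotype. Most members hold under 10 reads, 175 of 326 (53.7%), so single ratios are wide.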
